A study of Mus musculus with 6 samples.

Results

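The 39 genes described here encode the general actin machinery of the cell and the proteins that tie it to sites of adhesion. They came from a list of core actin regulators and focal adhesion genes that was chosen with earlier results of these data known. None of them stands on the study's list of SOX11 target genes. All 39 of 39 were found among the 21368 named genes of the array, by 66 of its 55681 probes, and a gene with several probes was represented by its brightest one. Gene expression had been measured in primary keratinocytes, the main cells of the epidermis, grown from newborn mice of a mixed 129SvEx:C57BL/6 background. Knockout cells of 3 genotypes were each compared with wild-type control cells on 2 arrays, which makes 6 arrays. Sox4cKO cells lacked *Sox4*, Sox11cKO cells lacked *Sox11*, and dcKO cells lacked both. These genes encode transcription factors of the SoxC family. The deletions were made by a Cre recombinase under the keratin-14 promoter, in a line of FVB/N origin, so they occur in keratin-14 expressing cells and their progeny. The parental mice in the study's methods also carried a *Sox12* null allele, and the *Sox12* genotype of the cultured cells was not given in the sources used here. The cells had first been grown on growth-arrested J2 fibroblast feeders and then without them.

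Actin exists as free monomers and as filaments, and cells move and hold their shape by shifting it between these forms. Thymosins and profilin hold or deliver monomers, the Arp2/3 complex branches filaments, formins and Ena/VASP proteins lengthen them, capping and severing proteins end or cut them, and α-actinins and filamins bundle or cross-link them. At focal adhesions, talin, kindlins, vinculin, zyxin and their partners connect filaments to integrins, the receptors for the extracellular matrix. In the epidermis this machinery carries the migration of keratinocytes into a wound. The comparison asks whether loss of SoxC factors moved the actin machinery as a whole.

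On each array, knockout and wild-type RNA carried different dyes, with the knockout in Cy5 on array 1 and in Cy3 on array 2 of every genotype. All values below are log2 ratios of knockout over wild type unless a sentence says otherwise, so that -1 is a halving. A gene is said to pass when its adjusted p was below 0.05 in limma's model (Benjamini-Hochberg over all probes), and to be called when its mean log2 ratio also exceeded 1.5 in size. *Sox4* stood at -2.52 (SE 0.157) in Sox4cKO and -2.52 in dcKO, and *Sox11* at -2.98 (SE 0.35) in Sox11cKO and -3.43 in dcKO, and each of these passed. Between 35.2% and 45.1% of probes were well above background per channel. Of the 39 genes, 38 were well above background in both channels of both arrays in all 3 genotypes. The exception was *Vil1* (villin, a bundling and severing protein of microvilli), which was not well above background in any channel, so the text gives no fold change for it.

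In dcKO cells, 7 of the 39 genes passed, and all 7 were lower than in wild type. They were *Tmsb4x*, *Actg1*, *Zyx*, *Enah*, *Flna*, *Cfl1* and *Lasp1*, at -1.60 to -0.90. Of all 21368 genes, 3.6% passed in dcKO in either direction and 2.14% passed as lower, or 3.83% of the 11836 genes that were well above background. Only *Tmsb4x* was called, against 1.39% of all genes. In Sox4cKO and in Sox11cKO cells, 0 of the 39 genes passed, where 0.225% and 0.234% of all genes did. At an unadjusted p below 0.05, limma gave 6 of the 39 genes in Sox4cKO, 4 in Sox11cKO and 19 in dcKO, beside 10.5%, 10.7% and 19.8% of all genes.

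The 39 genes as a list lay lower in dcKO, and their median stood near 0 in either single knockout. Since the list was chosen with earlier results of these data known, this shift is a description and not independent evidence. The median log2 ratio was -0.345 in dcKO, where that of all genes was -0.01 and that of genes well above background -0.056. The list's median was -0.03 in Sox4cKO (0.03 with median centring in place of loess) and -0.045 in Sox11cKO. With median centring the dcKO median of the 39 genes was -0.89 and that of all genes -0.09. In dcKO, 30 of the 39 genes had a mean below 0 (76.9%), beside 52.2% of all genes and 55.5% of genes well above background. Of the 39, 24 were lower on both arrays while 4 were higher on both. Among the 11835 genes well above background with both dcKO values, 4631 (39.1%) were lower on both arrays and 3578 were higher on both. The list's medians on the 2 dcKO arrays were -0.45 and -0.28, so neither array alone held the shift. A bulk ratio of this kind cannot tell fewer cells of a type from less RNA per cell.

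**Figure D1:**
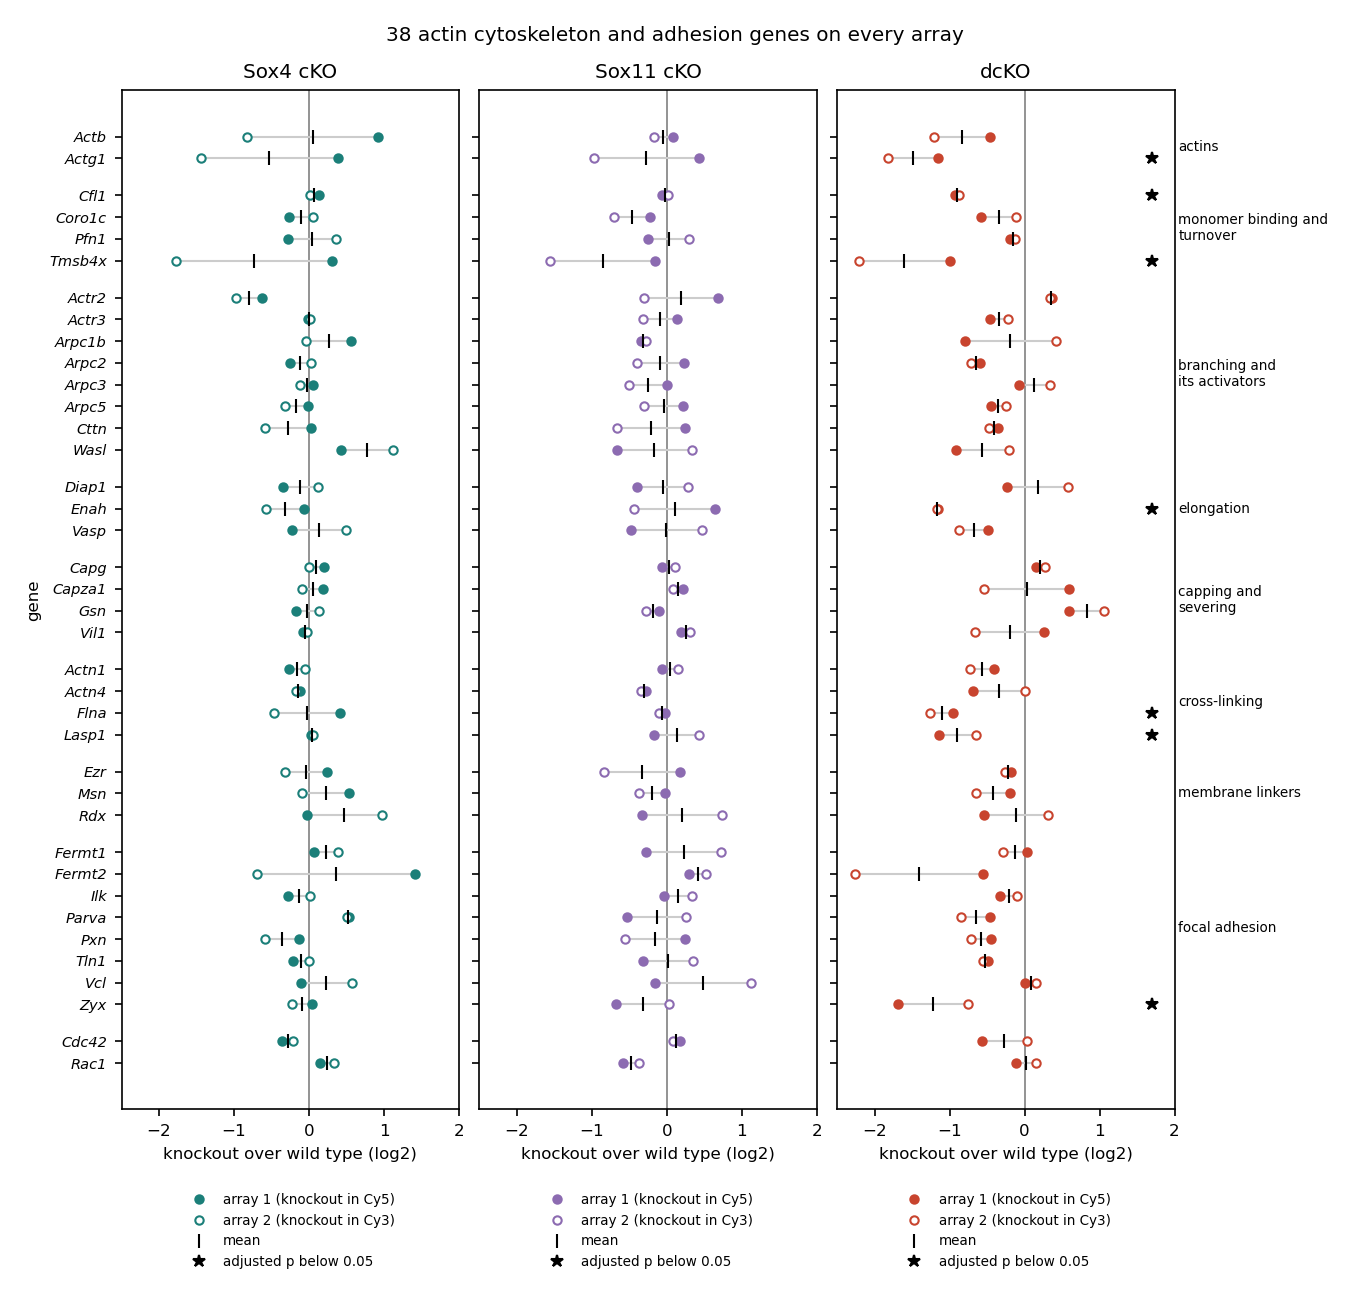
Log2 ratio of knockout over wild type for 38 of the 39 genes, ordered by role, on every array. *Vil1* is among those drawn, although it was not well above background, and 1 other gene is left out. Filled points are array 1, open points array 2, black ticks the mean, and stars mark an adjusted p below 0.05. The 7 stars all stand in the dcKO panel at means from -1.60 to -0.90, and most dcKO means lie left of 0.

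**Figure D2:**
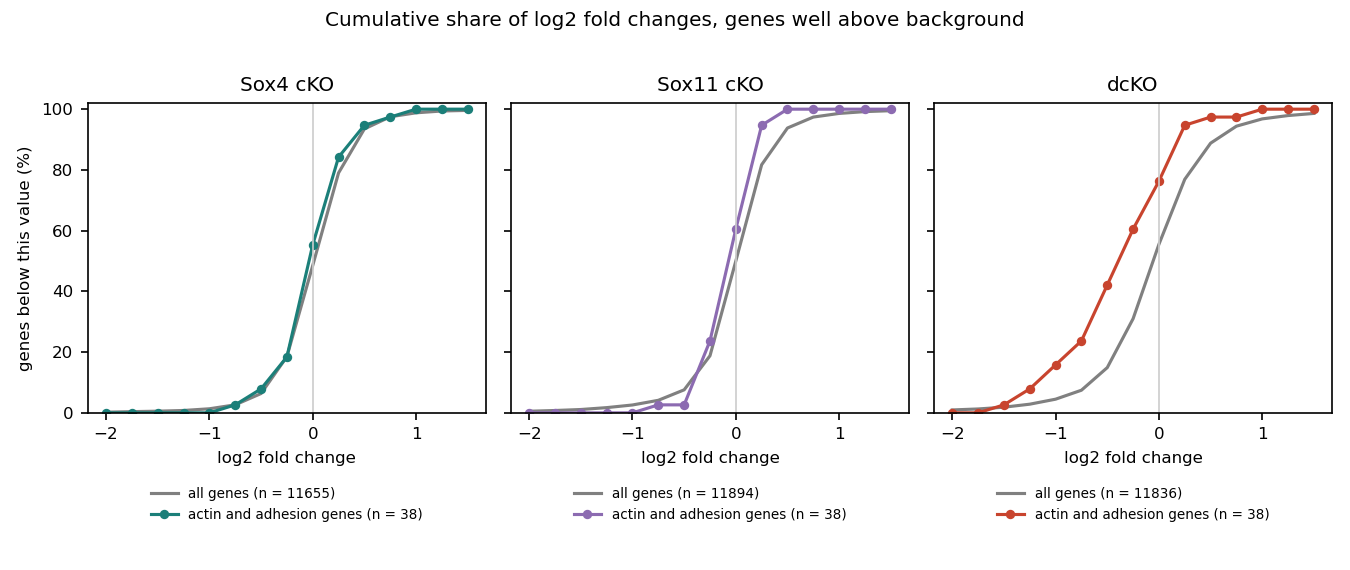
Share of genes whose log2 fold change lies below the value on the x axis, for genes well above background in each genotype. The coloured line is the 39 genes without *Vil1* (n = 38) and the grey line all such genes. The lines lie closer together in Sox4cKO and Sox11cKO than in dcKO. In Sox11cKO, 60.5% of the 38 genes lie below 0 where 50% of all such genes do, and 94.7% below 0.25 where 81.7% do. In dcKO, 42.1% of the 38 genes lie below -0.5 where 14.9% of all such genes do.

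The 2 cytoplasmic actins, from which the filaments are built, were the brightest of the 39 genes. For *Actg1* (γ-actin) the dcKO arrays read -1.15 and -1.82, the Sox4cKO arrays 0.38 and -1.44, and the Sox11cKO arrays 0.43 and -0.97. In each dye orientation the dcKO value was the lowest of the 3 genotypes. The Sox4cKO value with knockout RNA in Cy3 lay between the 2 dcKO values, and with the dye effect subtracted the dcKO arrays (-1.80 and -1.17) no longer overlapped the Sox4cKO arrays (-0.27 and -0.79). Its mean in dcKO was -1.485 (SE 0.207, adjusted p = 0.0175), and the means in Sox4cKO and Sox11cKO were -0.53 (adjusted p = 0.636) and -0.27 (adjusted p = 0.931). *Actb* (β-actin), often used as a reference gene, read -0.465 and -1.21 on the dcKO arrays, 0.92 and -0.82 on the Sox4cKO arrays, and 0.09 and -0.18 on the Sox11cKO arrays. Its dcKO mean of -0.84 (SE 0.242) had an adjusted p of 0.163 and did not pass. *Actb* and *Actg1* encode nearly identical proteins, and whether their probes share RNA was not tested.

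Promoter sequences from RefSeq (build GRCm38.p6) were at hand for 33 of the 39 genes. The windows below show the bases upstream of the transcription start that hold a CArG box, the element bound by serum response factor, because this factor is known for driving actin and adhesion genes. The last window shows the SOX core ACAAAG in the promoter of *Enah*, the 1 passing gene with a SOX core in its upstream 250 bases. Capitals mark the motif.
*Actg1*, chr11:120348556-120348605, minus strand: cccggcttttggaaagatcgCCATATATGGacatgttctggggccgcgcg
*Fermt2*, chr14:45530240-45530289, minus strand: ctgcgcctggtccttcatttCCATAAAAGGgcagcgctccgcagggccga
*Vcl*, chr14:20929151-20929200, plus strand: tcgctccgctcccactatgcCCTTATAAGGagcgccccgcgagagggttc
*Vil1*, chr1:74409291-74409340, plus strand: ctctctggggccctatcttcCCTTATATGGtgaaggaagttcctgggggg
*Enah*, chr1:182020135-182020180, minus strand: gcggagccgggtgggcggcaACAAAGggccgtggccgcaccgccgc

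A CArG box lay within the 250 upstream bases of these 4 of the 33 genes (12.1%), where 1.62% of 27025 genes with a promoter record had one. In *Actg1* it began 90 bases before the start. Of its 4 carriers, *Actg1* passed in dcKO, *Fermt2* and *Vcl* did not, and *Vil1* was not measured above background. The SOX core ACAAAG, searched on both strands, lay in 4 of the 33 genes (12.1%) and in 18.6% of all genes. The shorter SOX core ACAAT lay in 5 of the 33 (15.2%) and in 30.9% of all genes, and in 0 of the 7 passing genes. A match of letters shows only that they stand in this window.

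Of the 4 genes that bind monomers or turn filaments over, 2 fell in dcKO. *Tmsb4x* encodes thymosin β4, the main protein that sequesters actin monomers. It read -0.995 and -2.21 on the dcKO arrays, 0.30 and -1.77 on the Sox4cKO arrays, and -0.15 and -1.56 on the Sox11cKO arrays. In all 3 genotypes the lower value was that of array 2, and dye orientation and replicate number cannot be told apart here. The dcKO values of this gene were the lowest of each dye orientation. Its means were -1.60 (SE 0.183, adjusted p = 0.00928) in dcKO, -0.73 (adjusted p = 0.38) in Sox4cKO and -0.85 (adjusted p = 0.233) in Sox11cKO, which made it the second lowest and the lowest of the genes in the single knockouts.

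*Cfl1* encodes cofilin-1, which severs and depolymerises filaments. Its ratios were -0.93 and -0.87 on the dcKO arrays, 0.13 and 0.01 on the Sox4cKO arrays, and -0.07 and 0.01 on the Sox11cKO arrays. The dcKO values did not overlap those of either single knockout, and the arrays of each genotype lay close together. The dcKO mean was -0.90 (SE 0.144, adjusted p = 0.0275). *Coro1c*, a coronin that promotes filament turnover, stood at -0.57 and -0.11 in dcKO, -0.26 and 0.06 in Sox4cKO, and -0.23 and -0.70 in Sox11cKO, and did not pass in any of them. *Pfn1* (profilin-1, which delivers monomers to growing ends) stood at -0.16 in dcKO.

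Among the 3 elongation genes, *Enah* fell in dcKO. It encodes Mena, an Ena/VASP protein that protects growing filament ends. The dcKO arrays read -1.16 and -1.165, the closest pair among the 39 genes, the Sox4cKO arrays -0.07 and -0.57, and the Sox11cKO arrays 0.64 and -0.43. No array of a single knockout was as low as the dcKO arrays. The dcKO mean was -1.16 (SE 0.198, adjusted p = 0.0339). Its paralog *Vasp* had a dcKO mean of -0.68 (adjusted p = 0.249), and the formin gene *Diap1* (listed in the reference as *Diaph1*) one of 0.18.

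None of the 8 genes of filament branching passed in dcKO, where their median was -0.35 and their range -0.65 to 0.35. Among subunits of the Arp2/3 complex, *Arpc2* stood lowest at -0.65 (adjusted p = 0.151) and *Actr2*, which encodes Arp2, highest. *Actr2* read 0.36 and 0.33 on the dcKO arrays, -0.62 and -0.98 on the Sox4cKO arrays, and 0.68 and -0.30 on the Sox11cKO arrays. It was the lowest of the 39 genes in Sox4cKO (-0.80, adjusted p = 0.332), while its dcKO mean of 0.35 became -0.20 when arrays were centred on their median with no loess. The remaining subunits *Actr3*, *Arpc1b*, *Arpc3* and *Arpc5* had dcKO means from -0.35 to 0.13, and the activator *Cttn* (cortactin) one of -0.41.

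*Wasl* encodes N-WASP, which activates the Arp2/3 complex. It read 0.42 and 1.13 on the Sox4cKO arrays, -0.67 and 0.33 on the Sox11cKO arrays, and -0.92 and -0.21 on the dcKO arrays. Both Sox4cKO values lay above both dcKO values. The wild-type log2 intensity levels of *Wasl* also differed, at 10.44 and 9.90 on the Sox4cKO arrays and 11.365 and 10.89 on the dcKO arrays. Its means were 0.77 (SE 0.148, adjusted p = 0.183) in Sox4cKO, the highest of the 39 genes there, and -0.56 (adjusted p = 0.126) in dcKO. The difference between dcKO and Sox4cKO was -1.34 (SE 0.209, adjusted p = 0.0466), which was the 1 difference between genotypes that passed among the 39 genes. Its direction held under the 14 alternatives that tested it, but it had been picked on these same arrays. Leaving out a Sox11cKO array or changing the dye term also cannot move this difference in this design. The difference missed the threshold under 8, among them those without either Sox4cKO or either dcKO array.

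Of the 4 genes grouped as capping and severing proteins, 3 were measured above background and none passed in dcKO. *Gsn* encodes gelsolin, which severs filaments and caps their ends. It read 0.59 and 1.06 on the dcKO arrays, -0.18 and 0.13 on the Sox4cKO arrays, and -0.10 and -0.28 on the Sox11cKO arrays, with no overlap between dcKO and the others. Its dcKO mean of 0.83 (SE 0.167) was the highest of the 39 genes and narrowly missed the threshold (adjusted p = 0.0584), as did its second probe (0.88, adjusted p = 0.0501). *Capg*, which caps filaments without severing them, read 0.16 and 0.27 on the dcKO arrays, 0.20 and -0.002 on the Sox4cKO arrays, and -0.06 and 0.11 on the Sox11cKO arrays. Its dcKO mean of 0.21 turned to -0.295 under centring with no loess. *Capza1*, a subunit of capping protein, stood at 0.03 in dcKO.

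Of the 4 cross-linking genes, 2 fell in dcKO. *Flna* encodes filamin A, which joins filaments into networks and binds integrins. It read -0.95 and -1.26 on the dcKO arrays, 0.41 and -0.47 on the Sox4cKO arrays, and -0.03 and -0.11 on the Sox11cKO arrays. The dcKO values lay below the other 4 arrays. Its dcKO mean was -1.105 (SE 0.178, adjusted p = 0.0282).

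*Lasp1*, a LIM and SH3 domain protein of focal adhesions and lamellipodia, read -1.145 and -0.65 on the dcKO arrays, 0.03 and 0.05 on the Sox4cKO arrays, and -0.17 and 0.43 on the Sox11cKO arrays. Again the groups did not overlap, and the dcKO mean was -0.90 (SE 0.163, adjusted p = 0.0424). The α-actinin genes *Actn1* and *Actn4* had dcKO means of -0.565 (adjusted p = 0.159) and -0.345 (adjusted p = 0.522). The 3 genes that link filaments to the membrane, *Ezr*, *Msn* and *Rdx* (ezrin, moesin and radixin), ranged from -0.42 to -0.11 in dcKO and none passed. *Rdx* was the third highest of the 39 genes in Sox4cKO, at -0.03 and 0.97, and read -0.33 and 0.74 in Sox11cKO and -0.54 and 0.32 in dcKO, so that array 2 was the higher one in each genotype.

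Of the 8 focal adhesion genes, 7 had a dcKO mean below 0 and 1 passed. *Zyx* encodes zyxin, which recruits Ena/VASP proteins to adhesions and stress fibres. It read -1.69 and -0.76 on the dcKO arrays, 0.04 and -0.225 on the Sox4cKO arrays, and -0.675 and 0.035 on the Sox11cKO arrays. The dcKO values were the lowest, although the higher of them was close to the lower Sox11cKO value. Its dcKO mean was -1.22 (SE 0.218, adjusted p = 0.0395).

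*Fermt2* (kindlin-2, an integrin activator) varied most between its dcKO arrays, at -0.555 and -2.26, and read 1.41 and -0.69 on the Sox4cKO arrays and 0.30 and 0.52 on the Sox11cKO arrays. Its dcKO mean of -1.41 was lower than that of 5 of the 7 passing genes, with a larger error (SE 0.353, adjusted p = 0.111). *Fermt1* (kindlin-1, the kindlin of keratinocytes) read 0.04 and -0.28 on the dcKO arrays, 0.07 and 0.39 on the Sox4cKO arrays, and -0.28 and 0.73 on the Sox11cKO arrays. *Vcl* (vinculin) read 0.01 and 0.16 in dcKO, -0.11 and 0.57 in Sox4cKO, and -0.15 and 1.12 in Sox11cKO, where its mean of 0.49 was the highest of the 39 genes (adjusted p = 0.716).

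*Parva* (α-parvin, a partner of integrin-linked kinase) read 0.54 and 0.51 on the Sox4cKO arrays, -0.52 and 0.26 on the Sox11cKO arrays, and -0.45 and -0.85 on the dcKO arrays. The other 3 focal adhesion genes had dcKO means of -0.58 for *Pxn* (paxillin), -0.52 for *Tln1* (talin-1) and -0.21 for *Ilk*, and did not pass. *Rac1*, which drives the formation of lamellipodia, read -0.12 and 0.16 on the dcKO arrays, 0.15 and 0.34 on the Sox4cKO arrays, and -0.58 and -0.37 on the Sox11cKO arrays, where its mean of -0.47 was the second lowest (adjusted p = 0.467). *Cdc42*, which drives that of filopodia, had a dcKO mean of -0.27.

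The 7 genes that fell in dcKO were not shown to differ between dcKO and the single knockouts. For these 7 genes the difference of dcKO minus Sox4cKO was -1.13 to -0.84, with adjusted p from 0.0979 to 0.28, and that of dcKO minus Sox11cKO was -1.27 to -0.75, with adjusted p from 0.131 to 0.346. Over all 39 genes, 1 passed for dcKO minus Sox4cKO (*Wasl*), where 1.24% of all genes did. For dcKO minus Sox11cKO, 0 of 39 genes passed beside 0.842% of all genes, and for Sox11cKO minus Sox4cKO, 0 passed beside 0.0187%. At an unadjusted p below 0.05, limma gave 16, 11 and 3 of the 39 genes in these comparisons, and 17.6%, 16.2% and 9.51% of all genes.

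The levels of each channel show on which side of the ratio a gene moved. For *Cfl1* the dcKO levels were 14.42 and 14.46 on the log2 intensity scale, and the 6 wild-type levels ran from 14.82 over a median of 15.22 to 15.57. For *Gsn* the dcKO levels of 14.04 and 13.99 lay above all 6 wild-type levels, which ran from 12.90 to 13.445. In all, 10 of the 39 genes had both dcKO levels below all wild-type levels, among them 5 of the 7 passing genes (*Actg1*, *Cfl1*, *Flna*, *Zyx* and *Tmsb4x*). The 7 had been picked as lower on these same dcKO arrays, so their levels there are not independent of that choice. Of the genes well above background, 7.68% had both dcKO levels below all wild-type levels and 6.4% had both above, where *Gsn* was the 1 such gene of the 39.

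For *Enah*, the dcKO levels of 10.12 and 10.31 fell within the wild-type levels of 10.09 to 11.62. The wild-type cells on the dcKO arrays read 11.28 and 11.47 for this gene, and the mean wild-type level of the other arrays was 10.73. For *Lasp1* the dcKO levels of 13.03 and 13.13 lay just above the lowest wild-type level, 13.01. Levels across arrays include differences between hybridisations, which the ratios do not.

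**Figure D3:**
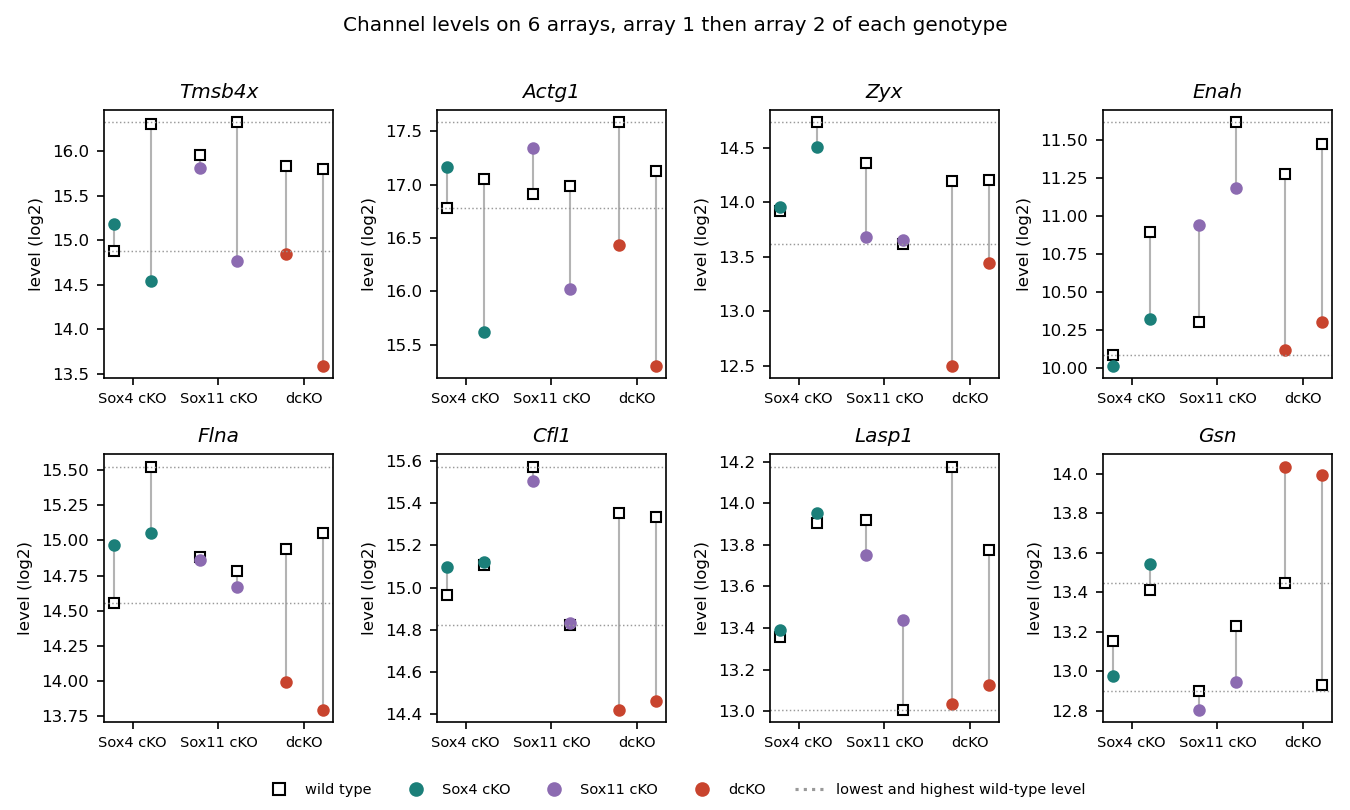
Wild-type (open squares) and knockout (filled circles) channel levels on the log2 intensity scale for the 7 passing genes and *Gsn*, with array 1 and then array 2 of each genotype; dotted lines are the lowest and highest of the 6 wild-type levels. The dcKO circles lie below both lines in 5 panels, within them for *Enah* and *Lasp1*, and above them for *Gsn*.

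Separate probes of a gene did not always give the same size. For *Actg1*, 5 probes gave dcKO means of -1.485, -1.46, -0.67, -0.82 and -0.93, from the brightest to the dimmest, and the 2 brightest passed. These 2 probes read -1.44 on array 2 of Sox4cKO, where the other 3 read 0.09, 0.28 and 0.67, so the low Sox4cKO value of *Actg1* rests on 2 of 5 probes. For *Cfl1* the probes gave -0.90, -0.88 and -0.69 and the first 2 passed, and for *Enah* both passed, at -1.16 and -0.98. The second probe of *Lasp1* gave -0.56 (adjusted p = 0.185). Of the 19 genes with several probes, *Parva* was the 1 whose probes differed in direction in dcKO, at -0.65, -0.02 and 0.12. With every probe of a gene required to pass, 4 of the 39 genes passed in dcKO (*Enah*, and *Flna*, *Zyx* and *Tmsb4x*, which have 1 probe each), an alternative chosen after these probes were seen.

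**Figure D4:**
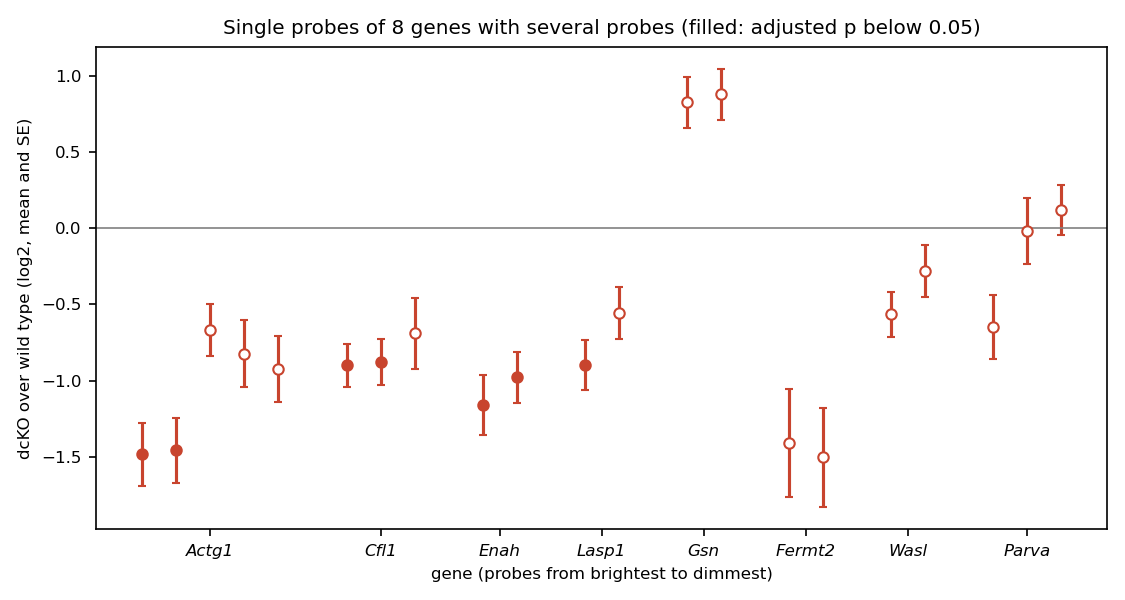
Mean log2 ratio and SE of dcKO over wild type for each probe of 8 genes with several probes, ordered from the brightest to the dimmest probe; filled points have an adjusted p below 0.05. The 2 brightest *Actg1* probes stand near -1.5 and the other 3 between -0.93 and -0.67.

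The 39 genes were among the brighter of the array, and the count of passing genes varied with brightness. Of the 7 genes with a mean log2 intensity of 14 or more, 4 passed as lower in dcKO, where 2.91% of the 378 genes in that range did. Between 11 and 14 it was 2 of 21 genes, against 3.59% of all genes in the range. Between 8 and 11 it was 1 of 6 against 4.11%, and below 8 it was 0 of 5 against 1.23%.

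A further 85 genes of the actin cytoskeleton and adhesion, outside the 39, were all measured. Of these, 4 passed in dcKO (4.71%), all lower, which is near the 3.83% of genes well above background that passed as lower. Their median was -0.14, and 61.2% lay below 0 beside 52.2% of all genes and 55.5% of genes well above background. Among the 85, 1 gene was called in dcKO, beside 1.39% of all genes, and 1 in Sox4cKO, beside 35 of all 21368 genes.

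Of 5 relatives of the 39 genes on the study's own target list, 4 stood lower in dcKO than any of the 39 genes. *Evl*, the third Ena/VASP gene, stood at -3.60 (adjusted p = 0.00124), while *Enah* and *Vasp* stood at -1.16 and -0.68. *Fblim1* (migfilin, which binds filamin and kindlin-2) stood at -2.85 (adjusted p = 0.00105), *Fscn1* (fascin, which bundles filaments in filopodia) at -2.98 (adjusted p = 0.00391) and *Marcksl1* (a membrane protein that binds actin) at -2.58 (adjusted p = 0.00693). *Tmsb10*, which encodes thymosin β10, stood at -1.495 (adjusted p = 0.0322) beside the -1.60 of *Tmsb4x*. The study chose that list with the help of these samples, so its direction is not independent evidence.

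Markers of other cells were compared because fibroblasts hold much actin. All 9 keratinocyte markers were well above background in every channel. Of 10 fibroblast markers 1 (*Col1a2*) was well above background in both channels of both dcKO arrays, and *Col1a1*, *Col3a1*, *Lum*, *Pdgfrb*, *Thy1* and *Fbn1* were not in any channel of the 6 arrays. The summed log2 level of this list was 8.47 and 8.30 in dcKO and 8.33 and 8.33 in their wild-type controls, and 0 of 10 passed in dcKO. In Sox4cKO the summed level was 8.65 and 8.32 against 9.29 and 9.15 in the controls, while the median of the 10 markers was -0.05 and 1 passed, *Vim* (vimentin), at -2.27 (adjusted p = 0.034) and well above background in 4 of 12 channels. Its part in the Sox4cKO values of the 39 genes was not tested. Of 7 melanocyte, 6 immune, 4 endothelial and 5 muscle markers, 0 passed in dcKO, where 3.6% of all genes did. Lists this small can show little by such a count, the fibroblast list included. Of these markers, 4 melanocyte, 2 immune, 2 endothelial and 1 muscle were well above background in the knockout or wild-type channel of both dcKO arrays.

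All 7 genes were lower in dcKO under each of 14 alternatives, but they had been picked as lower on these same arrays. Leaving out a Sox4cKO or Sox11cKO array, or changing the dye term, also cannot move a dcKO mean in this design. The number of passing genes in dcKO depended on the processing and ran from 0 to 23. The share of all genes that passed moved with it. The count was 0 with the scanner software's processed signals (0% of all genes), 0 without dcKO array 1 (0.384%) or array 2 (0.426%), 1 (*Cfl1*) with an offset of 50 (0.608%) and 1 (*Cfl1*) with no replicate block (1.75%). It was 4 without either Sox4cKO array (2.75%), 12 without either Sox11cKO array (9.09%), 16 in the authors' table (12.6%) and 23 with median centring in place of loess (16.7%).

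**Figure D5:**
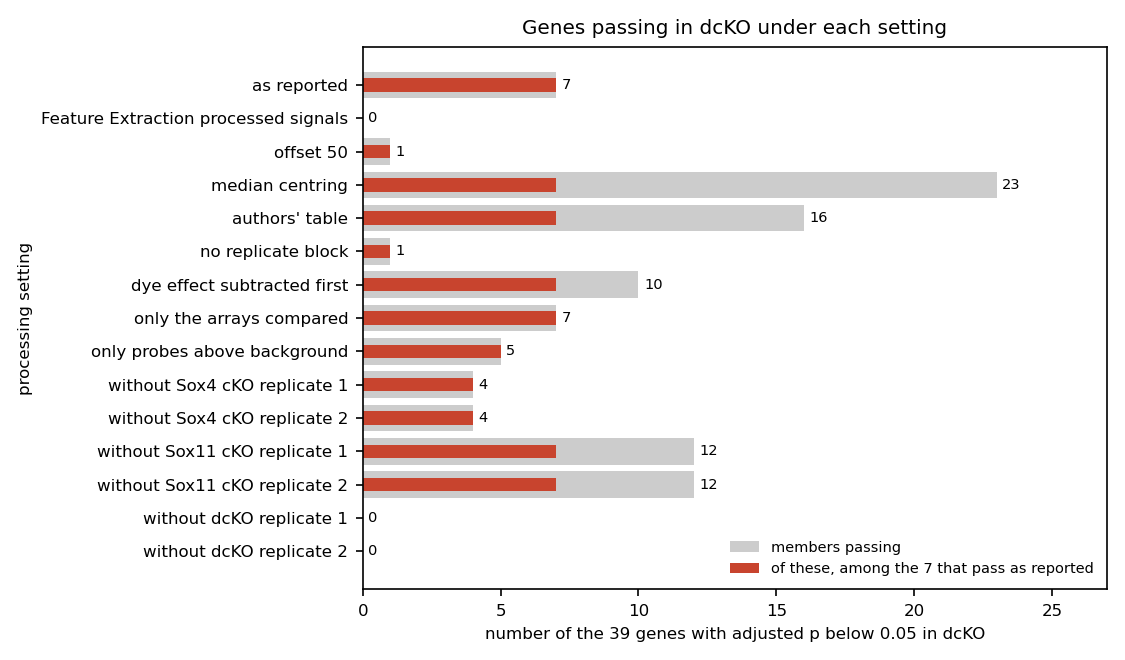
Number of the 39 genes with an adjusted p below 0.05 in dcKO as reported and under 14 alternatives (grey bars, with the number printed), and how many of the 7 reported genes are among them (red bars). The count falls to 0 without either dcKO array and rises to 23 with median centring, where all 7 are included.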

How the data were processed

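The 6 arrays were Agilent arrays with 2 colours, 2 per genotype, with dyes exchanged between replicates. The authors deposited scanner files with spot intensity values on a linear scale, made with Agilent Feature Extraction 11.0.1.1, and a table of log2 ratios that per the study's methods was corrected for background, normalised by loess and adjusted for the dye. Here, median intensity values were corrected with normexp (offset 16, as in the study), loess normalised within arrays and averaged per probe in R 4.3.3 with limma 3.58.1. Of 62976 spots, 3671 control spots were left out, and 194 to 288 outlier spots per array were set to missing. Marks for background and outliers in the deposited files are those of the scanner software. lmFit and eBayes were run on all 6 arrays with genotype terms and a dye term, which equals a block on the replicate number. This left 2 residual degrees of freedom, to which the prior added 5.38. Same-numbered arrays of different genotypes deviated together (r of 0.13 to 0.32 for 3 pairs), and the dye is shared by number. Channel levels were scaled between arrays by Aquantile. The labels do not say whether wild-type RNA came from separate cultures, so p-values measure the spread between arrays, whose number limits the precision. All arrays came from 1 slide and 1 scan. Probes were named through RefSeq accessions (28331 probes, 21368 genes). Members and lists, and the rule for naming genes (those passing, the 3 highest and lowest per genotype, *Actb*, *Actg1*, *Tmsb4x* and 7 reference genes), were chosen with earlier results of these data known. The test was run on simulated data with errors independent between arrays, which does not cover the shared deviations of same-numbered arrays. The values of 1 role group are not reported here as a group.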

Additional observations from a re-analysis of the deposited data

Results flagged for a closer look

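*Wasl* was singled out because its effect differed between genotypes by a test of the difference itself. The difference of dcKO minus Sox4cKO was -1.34 (SE 0.209, adjusted p = 0.0466), with Sox4cKO arrays at 0.42 and 1.13 and dcKO arrays at -0.92 and -0.21. Wild-type levels were 11.365 and 10.89 on the dcKO arrays and 10.44 and 9.90 on the Sox4cKO arrays. These lay farther apart than the knockout levels, 10.445 and 10.69 in dcKO and 10.865 and 11.02 in Sox4cKO. The second *Wasl* probe gave means of 0.63 in Sox4cKO and -0.28 in dcKO, and its difference did not pass. The difference no longer passed under 8 of the 14 alternatives that tested it. Its direction did not change, but some of these alternatives cannot move the difference.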

How the results depend on the processing

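All 7 passing genes were lower in dcKO under each of the 14 alternatives run over all probes, some of which cannot move a dcKO mean. Counts given below without the share of all genes under the same setting cannot be read as particular to the 39 genes. Such counts include those of called genes and of differences between genotypes. The counts of passing genes changed. In dcKO they were 0 with processed signals (where 0 of all genes passed and the median of all genes moved to 0.12 from -0.01), 1 with an offset of 50 (0.608% of all genes), 23 with median centring (16.7%), 16 in the authors' table (12.6%), 1 with no replicate block (1.75%) and 4 with every probe required to pass, and 0 to 12 when 1 array was left out. Called genes in dcKO were 0 with processed signals, 0 with an offset of 50, 6 with median centring, 0 with no replicate block and 0 to 1 when 1 array was left out. For dcKO minus Sox4cKO, passing genes were 0 with processed signals, 0 with an offset of 50, 12 with median centring (7 called), 9 in the authors' table, 0 with no replicate block, 2 with the dye effect subtracted first, 6 on only the arrays compared (1 called), 0 on only probes above background, 0 with every probe required to pass, and 0 to 6 (0 to 1 called) when 1 array was left out. For dcKO minus Sox11cKO they were 6 with median centring (4 called), 6 in the authors' table, 1 with the dye effect subtracted first and 0 to 2 (0 to 1 called) when 1 array was left out. The authors' table gave 1 gene in Sox4cKO and 1 for Sox11cKO minus Sox4cKO, and leaving out 1 array gave 0 to 1 in Sox11cKO. The median log2 ratio of the 39 genes moved to 0.03 in Sox4cKO and to -0.89 in dcKO with median centring, and ran from -0.49 to -0.345 in dcKO when 1 array was left out. Directions reversed for *Actb* in Sox4cKO (-0.007 with processed signals, -0.57 to 0.67 when 1 array was left out) and Sox11cKO (-0.54 to 0.45 when 1 array was left out), for *Fermt1* and *Fermt2* in Sox11cKO (-0.28 to 0.73 and -0.65 to 1.48 when 1 array was left out), and for *Capg* and *Actr2* in dcKO (-0.295 and -0.20 with median centring). The cause was not tested. Mean spot signals, planned as an alternative, were not run.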
